A study of Rattus norvegicus with 15 samples.

Results

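The genes of neutrophil granule proteins, early and late, were followed across bone RNA sequencing of female Sprague-Dawley rats. The set holds 10 of the 22468 genes in the deposited table, chosen by symbol for their known roles, with earlier results of these data known. They are 4 primary (azurophil) granule genes, Mpo, Elane, Prtn3 and Ctsg, and 6 later genes, Ltf, Camp, Lcn2, Ngp, S100a8 and S100a9. All 10 symbols were found once each, and 9 genes passed the filter on low counts that precedes testing. Ltf, the later gene for lactoferrin, did not. There were 15 libraries in 5 groups of 3. Blank rats had no treatment, and Model rats were ovariectomized, a surgery that removes the main source of oestrogen, and labelled as having osteoporosis. SYT, YJT and YJZYT rats were also ovariectomized and are known here only by these names. The series is about Zhuanggu Zhitong Capsule, a Chinese herbal medicine, and nothing in the labels ties it to a group. No sham-operated group is described. The sources used here do not give the age of the rats, the bone taken or whether each library came from its own animal. The p-values therefore describe the spread between these samples alone, and that spread may be technical.

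Neutrophils are made in the bone marrow, and their granules are filled in the order in which the cells mature. Promyelocytes transcribe the primary granule proteins, myelocytes and metamyelocytes then transcribe the secondary (specific) granule proteins, and the proteins of tertiary granules and of the mature cell come last, so a ratio of early to late transcripts is often read as a measure of cell stage. C/EBP factors, PU.1, RUNX1 with its partner CBFB, MYB and GFI1 are the best known transcription factors of this lineage. In bulk RNA, fewer cells of a type and less RNA per cell cannot be told apart.

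Library totals ran from 64472700 to 74255667 counts. Values below are CPM (counts scaled to library size, with TMM factors) unless FPKM, the per-length unit, is named. The label bone was checked against osteoblast markers: 9 of 10 were found, and all 9 were above 0 in every library. Their summed level was 110890 CPM in SYT3 but only 3907 in YJT3 and 5112 in YJZYT3, and in the other 12 libraries it lay between these. Mitochondrial genes took 6.07% of the counts in Blank1 and 25.5% in SYT1. SYT1 was the highest library for Camp, Ngp, S100a8 and S100a9 and SYT3 the lowest for all 9 tested members. Most correlations over libraries, and some comparisons of members with SYT, are therefore also given without them, a choice made after seeing the data.

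Promoter sequence was matched for 8 of the 10 members in RefSeq (build GRCr8). The 250 bases before the start are shown for 2 primary members (Prtn3 and Ctsg) and 2 later members (Ngp and S100a9), as examples from each set. Capitals mark matches, on either strand, to the C/EBP-type motif TTNNGNAA, the PU.1-type motif GAGGAA or the RUNX-type motif TGTGGT, and none of the matches overlapped another. The coordinates in order are chr7:10476197-10476446 (minus strand), chr15:33907597-33907846 (minus), chr8:119272355-119272604 (plus) and chr2:178490623-178490872 (minus).
Prtn3: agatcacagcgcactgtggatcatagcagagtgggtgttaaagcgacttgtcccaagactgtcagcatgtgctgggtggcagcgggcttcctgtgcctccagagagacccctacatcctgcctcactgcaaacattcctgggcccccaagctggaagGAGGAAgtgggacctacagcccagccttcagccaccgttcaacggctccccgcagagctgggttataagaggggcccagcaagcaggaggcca
Ctsg: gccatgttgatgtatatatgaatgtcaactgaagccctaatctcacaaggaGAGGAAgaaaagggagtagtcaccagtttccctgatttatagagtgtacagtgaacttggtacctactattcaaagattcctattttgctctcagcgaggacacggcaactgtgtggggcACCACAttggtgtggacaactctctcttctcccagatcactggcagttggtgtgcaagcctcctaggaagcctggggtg
Ngp: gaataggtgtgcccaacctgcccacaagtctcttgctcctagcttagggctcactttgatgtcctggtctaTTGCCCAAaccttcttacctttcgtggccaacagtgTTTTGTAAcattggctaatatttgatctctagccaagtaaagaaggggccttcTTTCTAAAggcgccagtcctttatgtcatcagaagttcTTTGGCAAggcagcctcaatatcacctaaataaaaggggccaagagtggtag
S100a9: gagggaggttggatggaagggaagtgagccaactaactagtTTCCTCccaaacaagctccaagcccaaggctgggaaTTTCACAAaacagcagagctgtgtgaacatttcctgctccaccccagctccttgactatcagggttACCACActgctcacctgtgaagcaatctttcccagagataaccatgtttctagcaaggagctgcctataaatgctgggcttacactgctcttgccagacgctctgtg
Prtn3 had 1 match, to the PU.1-type motif, 93 to 88 bases before the start. Ctsg had a PU.1-type and a RUNX-type match. Ngp held 4 C/EBP-type matches and none of the other motifs, while S100a9 had 1 match to each of the 3 motifs. Over the 8 member promoters the C/EBP-type motif was present in 4 (S100a9, Lcn2, Ngp and Mpo), and it was present in 37.2% of all 33469 promoters of the same length. The PU.1-type motif was present in 4 (S100a9, Prtn3, Mpo and Ctsg), against 23.3% of all. The RUNX-type motif was present in 2 (S100a9 and Ctsg), against 14.5% of all. A match describes the letters in the window and nothing more.

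Per transcript length, Camp, Ngp, S100a8 and S100a9 were above all 4 primary members in every library. S100a8 and S100a9, which together form calprotectin, a calcium- and zinc-binding protein of the neutrophil cytosol, had mean levels of 8882 and 8398 FPKM over the 15 libraries and ranked 11 and 12 of all genes. Camp, the precursor of the antimicrobial peptide cathelicidin, followed at 1588 FPKM (rank 34). Ngp, a cystatin-like protein of the specific granule, had 1053 FPKM (rank 61), and Lcn2, lipocalin 2, which binds iron-carrying siderophores, had 376 FPKM (rank 168). Lcn2 was below Ctsg in 6 libraries (the 3 of Blank, SYT3, YJZYT1 and YJZYT2), below Elane in Blank2 and YJZYT2, and below Mpo in Blank2. The primary members had lower means. Ctsg, the serine protease cathepsin G, had 289.7 FPKM (rank 209), and Mpo, myeloperoxidase, which makes hypochlorous acid, had 187 FPKM (rank 320). Elane, neutrophil elastase, had 142 FPKM (rank 418), and Prtn3, proteinase 3, had 78.3 FPKM (rank 745). Taken as a share of all counts, the 10 members made up from 0.227% in SYT3 (95% Wilson interval 0.226 to 0.228) to 2.98% in SYT1 (2.97 to 2.98), both in the same group. These intervals cover counting error only.

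Ltf, which encodes the iron-binding protein lactoferrin and is a standard marker of specific granules, was listed at or near 0, unlike the other later genes. Whether the reads or the gene model behind this value are at fault was not tested, so it is not read as absence of the transcript. It was at 0 counts in 8 libraries and at 8 to 10 counts in the other 7, with 61 counts in all. Its highest level was 0.148 CPM, or 0.0477 FPKM, and its rank by mean FPKM was 19641. The libraries with counts were Blank3, Model1, Model2, SYT3, YJT1, YJT2 and YJZYT1, so every group had libraries at 0 and libraries above 0. A count of 0 allows up to 3 counts, which was 0.0404 to 0.0465 CPM depending on the library. No comparison of Ltf between groups was made. Its gene spans chr8:119290416-119313261 on the plus strand in the deposited table (the sources used here name no build for it), and no other gene of the table overlaps it. Camp and Ngp, which lie on the same chromosome, ranked 34 and 61 by mean FPKM in the same libraries.

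Among the primary members, Mpo was at 974, 665 and 824 CPM in Blank1, Blank2 and Blank3, at 826, 427 and 447 in Model1 to Model3, at 628, 383 and 176 in SYT1 to SYT3, at 411, 482 and 934 in YJT1 to YJT3, and at 682, 529 and 968 in YJZYT1 to YJZYT3. Blank1 was the highest and SYT3 the lowest library, and each pair of groups overlapped apart from Blank and SYT. Elane was at 223, 193 and 169.5 CPM for Blank, 199, 117 and 101 for Model, 137, 93.6 and 48.3 for SYT, 87.7, 99.2 and 257 for YJT, and 174, 187 and 245 for YJZYT, in replicate order. YJT3 was the highest library and the other 2 YJT libraries were lower than every Blank and YJZYT library. Ctsg was at 426, 399.5 and 377 CPM for Blank, 430.0, 318 and 234 for Model, 344, 187 and 105 for SYT, 180.0, 226 and 459.5 for YJT, and 342, 404 and 541 for YJZYT. Its Blank libraries were close together (401 ± 24.6 CPM, SD, n = 3), and the SYT and YJT libraries spread widely (212 ± 121 and 289 ± 149.8 CPM). Prtn3 was at 76.2, 134 and 57.2 CPM for Blank, 112, 90.1 and 49.3 for Model, 109, 55.7 and 24.9 for SYT, 64.8, 78.5 and 119.6 for YJT, and 89.1, 112 and 141 for YJZYT. Here Blank2, not Blank1, was the highest Blank library, unlike in Mpo, Elane and Ctsg.

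The order of the group means was similar within the primary set. YJZYT was highest for Elane, Prtn3 and Ctsg, Blank was highest for Mpo, and SYT was lowest for all 4. The highest group mean was 1.81 (Prtn3) to 2.17 (Elane) times the lowest, while the mean coefficient of variation within groups was 33.8% (Ctsg) to 41.1% (Prtn3). All 4 pairs of neighbours in the order overlapped for every primary member, so neighbours did not differ beyond their spread. Some groups farther apart in the order did not overlap. SYT lay below Blank for Mpo, Elane and Ctsg, and below YJZYT for Elane. The share of all genes without overlap in these pairs was not counted, and no contrast of these pairs was tested. In the comparisons that were counted the share was 5.89% to 15.7%. The pairs without overlap are therefore not read as differences between groups. Elane and Prtn3 carry a limit of their own. In the deposited table they lie at chr7:12638322-12640232 and chr7:12643516-12646960, both on the minus strand and both within the span given for Arhgap45 on that strand (124 to 358.5 CPM), so reads could be shared with it.

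Among the later members, S100a8 was at 2264, 4033 and 2089 CPM for Blank, 3118, 7296 and 1529.8 for Model, 12116, 2256 and 678 for SYT, 2736, 4287 and 4466 for YJT, and 2542, 4028 and 6299 for YJZYT. S100a9 was at 3475, 5005 and 2874 CPM for Blank, 4613, 8242 and 2119 for Model, 14731, 3333 and 860.1 for SYT, 4145, 6289 and 6448 for YJT, and 3584, 4852 and 8257 for YJZYT. SYT1 and SYT3 were the highest and lowest of all 15 libraries for both genes, and the SYT group therefore spanned every other group. Camp was at 759, 1392 and 723 CPM for Blank, 1034, 1888 and 515 for Model, 4157, 844 and 252 for SYT, 1191, 1675 and 1675 for YJT, and 1147, 1322 and 2562 for YJZYT. Model2 and Blank2 were the highest libraries of their groups for Camp, S100a8 and S100a9. Ngp was at 842, 773 and 913 CPM for Blank, 1379.8, 1251 and 672 for Model, 3643, 987 and 188 for SYT, 1304, 1727 and 2118 for YJT, and 1386, 901 and 2423 for YJZYT. Its Blank libraries were close together (843 ± 69.5 CPM, SD, n = 3), the YJT libraries were all above them, and the SYT libraries spanned both. Lcn2 was at 368, 143 and 319 CPM for Blank, 524, 409.7 and 229 for Model, 515, 318 and 64.5 for SYT, 435, 544 and 849 for YJT, and 209, 165 and 687 for YJZYT. For Lcn2 the Blank2 library was the lowest Blank library, the reverse of its place for Camp, S100a8 and S100a9.

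**Figure D1:**
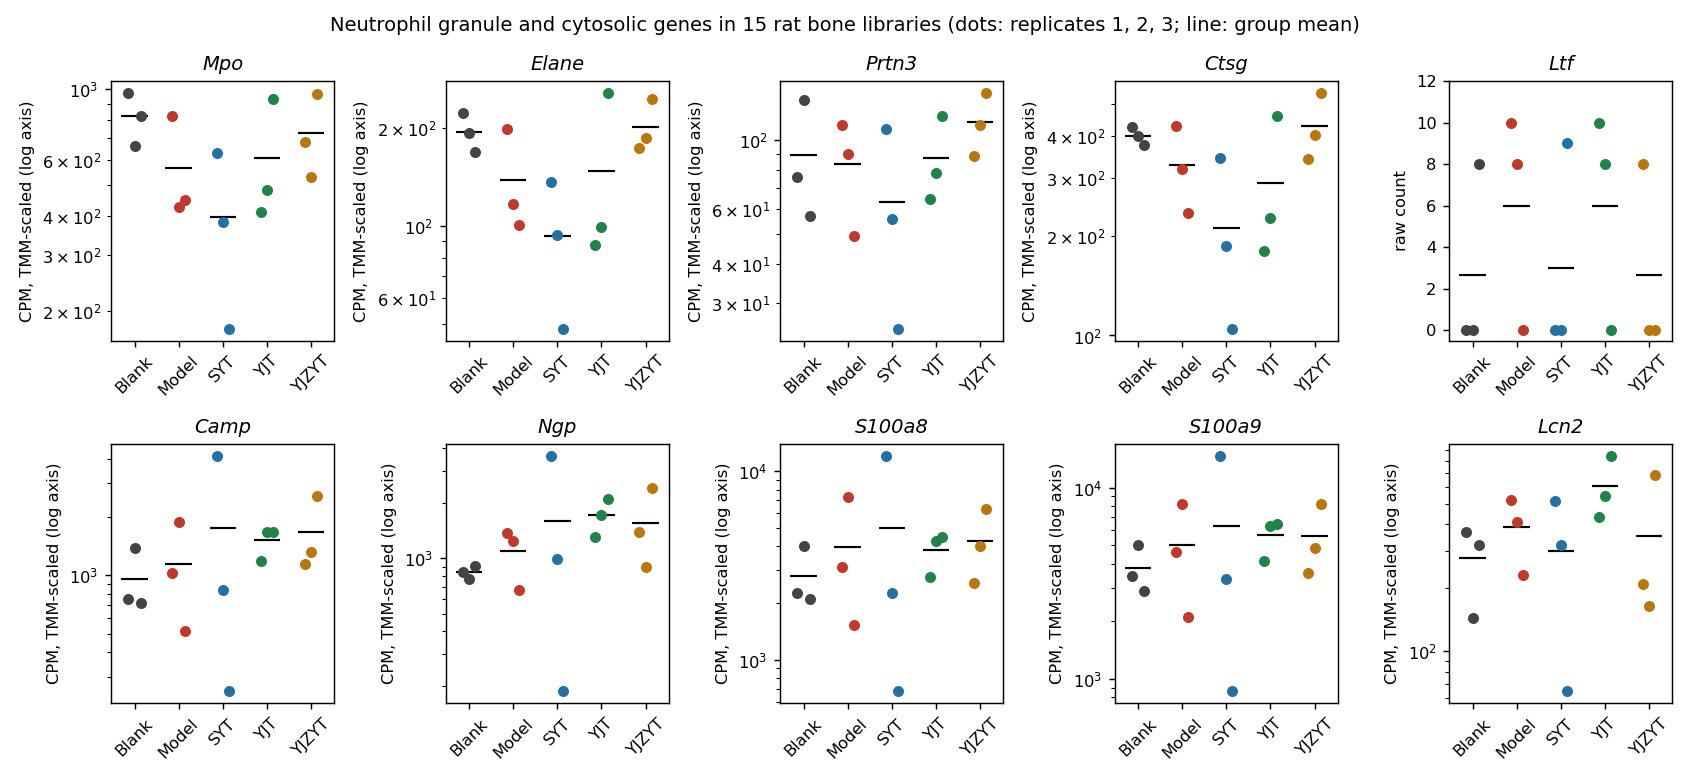
Level of each member in every library, in TMM-scaled CPM on a log axis (for Ltf, the raw count on a linear axis); dots are the 3 replicates of a group and the line is the group mean. SYT3 is the lowest library for all 9 tested members and SYT1 the highest for Camp, Ngp, S100a8 and S100a9; Ltf is at 0 to 10 counts throughout.

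The later members varied over a wider range than the primary members. The highest library was 5.16 (Ctsg) to 5.68 (Prtn3) times the lowest for the primary members and 13.2 (Lcn2) to 19.4 (Ngp) times for the 5 tested later members. The mean coefficient of variation within groups was 45.7% (Ngp) to 61.2% (S100a8) for the later members. Their group means were lowest in Blank for all 5 and highest in SYT for Camp, S100a8 and S100a9 and in YJT for Lcn2 and Ngp, and the highest was 1.67 (S100a9) to 2.201 (Lcn2) times the lowest. As in the primary set, all neighbours in the order overlapped for each gene. Farther apart in the order, YJT lay above Blank without overlap for Ngp and Lcn2. For that pair, too, the share of all genes without overlap was not counted and no contrast was tested, so it is not read as a difference between groups. The SYT mean rests on 1 library: S100a9 was 6308 ± 7398 CPM there (SD, n = 3), an SD above the mean.

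The members of each set varied together across the 15 libraries. Pearson's r of log2 CPM had a median of 0.90 over the 6 pairs of primary members (0.75 to 0.97) and of 0.89 over the 10 pairs of tested later members (0.65 to 0.99), but of 0.57 over the 20 pairs across the sets (0.49 to 0.84). These are descriptions, since the points share library, depth and cell mixture. Without SYT1 and SYT3 the medians were 0.81, 0.75 and 0.29. After group means were removed, with all 15 libraries, they were 0.90, 0.90 and 0.77. These last values were not taken without SYT1 and SYT3, the ends of the most widely spread group. The tightest pairs were S100a8 with S100a9 (r 0.99, SD of the log2 ratio 0.14) and Elane with Ctsg (r 0.97, SD 0.15).

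Prtn3 and Lcn2 followed their own sets less closely than the other members did. Prtn3 had r 0.83 with the median of the other primary members and 0.84 with that of the later members, while Mpo, Elane and Ctsg had 0.93 to 0.97 with their own set and 0.53 to 0.62 with the later one. Lcn2 had r 0.71 with the other later members, where Camp, Ngp, S100a8 and S100a9 had 0.91 to 0.98. Without SYT1 and SYT3, Prtn3 had 0.70 with its own set and 0.76 with the later one, and Lcn2 had 0.47 with its own set. Per length, the ratio of S100a8 to S100a9 stayed between 0.912 and 1.24 and that of Elane to Ctsg between 0.383 and 0.582. The ratio of Lcn2 to Camp went from 0.0862 in Blank2 to 0.424 in Model1 and YJT3, and that of Prtn3 to Ctsg from 0.157 in Blank3 to 0.373 in YJT1.

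**Figure D2:**
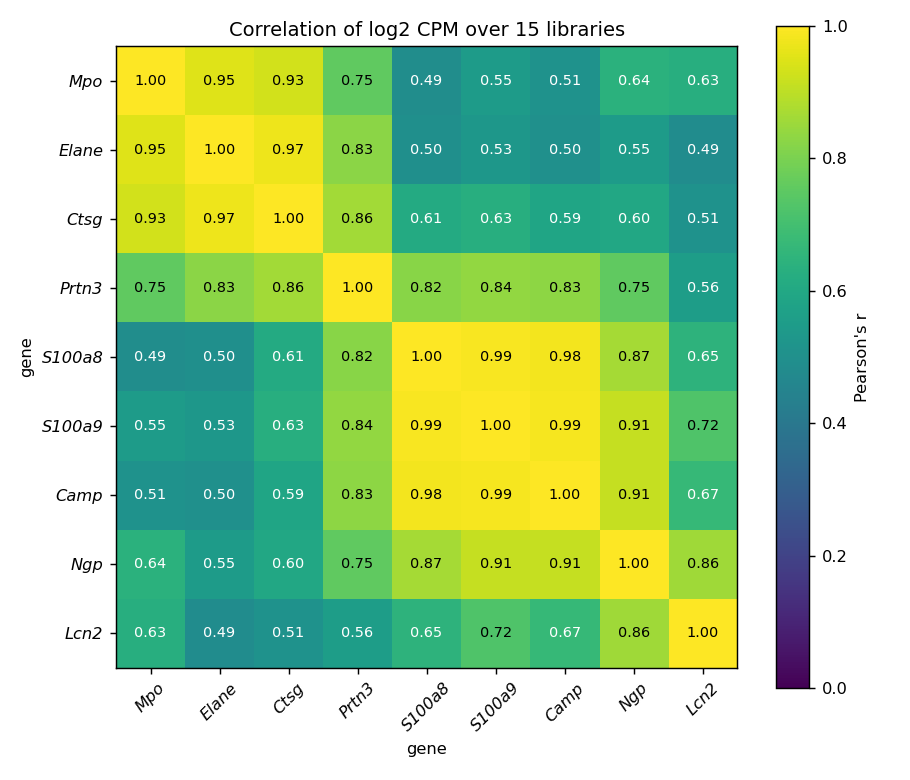
Pearson's r of log2 CPM between each pair of the 9 tested members over 15 libraries, as a coloured grid with genes on both axes. The primary block (median 0.90) and the later block (median 0.89) stand above the pairs across the sets (median 0.57), with Prtn3 as close to Camp, S100a8 and S100a9 as to its own set.

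The balance of the sets was followed as a score per library: each member's log2 CPM was set against its own mean over the 15 libraries, and the median over members was taken. The primary score ran from -1.62 in SYT3 to 0.80 in YJZYT3, and the later score from -2.32 in SYT3 to 1.75 in SYT1. Their r over 15 libraries was 0.63 (Spearman's rho 0.43). It was 0.22 without SYT2 and SYT3, the pair farthest from the median primary score, and 0.29 without SYT3 alone, so the relation over all libraries rests largely on SYT3. It was 0.70 without SYT1, 0.37 without SYT1 and SYT3, and 0.79 after group means were removed with all 15 libraries kept. The last value was not taken without SYT1 and SYT3. The SD of the later score was 2.04 in SYT and 0.29 (YJT) to 0.89 (Model) in the other groups, so SYT weighs most in it. Primary minus later was 0.997, 0.22 and 0.88 for Blank, 0.41, -0.82 and 0.60 for Model, -1.60, -0.20 and 0.70 for SYT, -0.63, -0.88 and 0.09 for YJT, and 0.50, 0.25 and -0.29 for YJZYT. All 3 Blank libraries lay above 0, and every other group had libraries on both sides of 0. The means were 0.70 ± 0.42 for Blank, 0.07 ± 0.77 for Model, -0.37 ± 1.16 for SYT, -0.47 ± 0.50 for YJT and 0.15 ± 0.40 for YJZYT (log2, SD, n = 3). The Blank and YJT libraries did not overlap in this score, the remaining pairs did, and no p is given because the members were chosen with results of these data known.

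**Figure D3:**
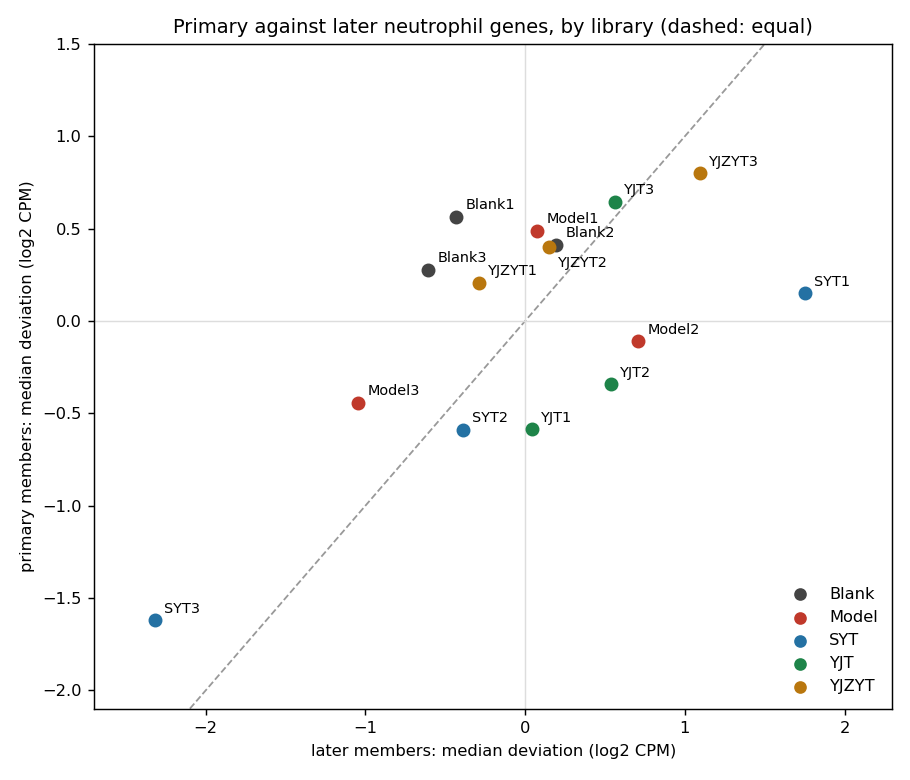
Score of the primary members (vertical axis) against that of the later members (horizontal axis) in each library, both as median deviations in log2 CPM; colours are groups and the dashed line marks equal scores. SYT1 (later 1.75, primary 0.15) and SYT3 (later -2.32, primary -1.62) lie at the ends, and the 3 Blank libraries lie above the line.

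Ovariectomy was compared with no treatment first. In Model against Blank the 4 primary members had fold changes below 0 and the 5 tested later members above 0, and none of them passed the test. The log2 fold changes were -0.53 (SE 0.45) for Mpo, -0.49 (0.43) for Elane, -0.29 (0.41) for Ctsg and -0.09 (0.48) for Prtn3, with a median of -0.39. For the later members they were 0.51 (0.81) for S100a8, 0.49 (0.68) for Lcn2, 0.40 (0.76) for S100a9, 0.39 (0.71) for Ngp and 0.26 (0.76) for Camp, with a median of 0.40. The median over all tested genes was 0.02, and 51.7% of genes were above 0. By edgeR's quasi-likelihood test with Benjamini-Hochberg adjustment, 0 of 9 members were past 0.05 (adjusted p 0.846 to 0.990), where 0.0227% of all 17657 tested genes were. At an unadjusted p under 0.05 there were also 0 of 9, where 8.19% of all genes were past it. The Model and Blank libraries overlapped for all 9, while they did not overlap for 15.7% of all genes. The median of the primary fold changes minus that of the later ones was -0.79, and it was -0.15 without Model2, the library highest in Camp, S100a8 and S100a9 in its group. For comparisons between groups, primary minus later means this difference of medians from here on, not the score per library. Without Model2 the folds of Camp, S100a8 and S100a9 were -0.31, -0.27 and -0.17, and that of Prtn3 was 0.34 without Blank2. The 95% interval for Mpo ran from -1.50 to 0.43 and that for S100a8 from -1.24 to 2.26, so changes of either sign lie within them.

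In SYT against Model the primary members again had fold changes below 0 and none passed. These were -0.63 (SE 0.42) for Ctsg, -0.58 (0.43) for Elane, -0.52 (0.45) for Mpo and -0.41 (0.48) for Prtn3, and all 4 stayed below 0 in each alternative run. Over all tested genes 53.2% were above 0 and the median was 0.02. The later members had 0.61 (0.76) for Camp, 0.54 (0.71) for Ngp, 0.34 (0.76) for S100a9, 0.33 (0.81) for S100a8 and -0.37 (0.68) for Lcn2. The sign of 4 of these later folds depends on how the SYT libraries are averaged. The difference of mean log2 CPM, from the same counts, scaling and genes, was -0.062 for Camp, -0.26 for Ngp, -0.30 for S100a8 and -0.31 for S100a9. It was -0.74 for Lcn2, whose sign was the same. Without SYT1 the edgeR folds were -1.09 for Camp, -0.93 for Ngp, -1.46 for S100a8 and -1.28 for S100a9. With edgeR, 0 of 9 members were past the adjusted threshold (adjusted p 1.0 for each), as were 0% of all genes. At an unadjusted p under 0.05 there were 0 of 9 against 3.16% of all genes, and 0 of 9 had groups that did not overlap, against 5.89% of all. Primary minus later was -0.89 and became 0.03 without SYT1 and -0.13 without SYT1 and SYT3. With limma, another fit, on log2(FPKM + 1) it was -0.32.

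In YJT against Model the primary members were close to 0 and the tested later members were above it apart from S100a8. Lcn2 had 0.65 (SE 0.68), Ngp 0.64 (0.71), Camp 0.40 (0.76), S100a9 0.17 (0.76) and S100a8 -0.06 (0.81). Mpo had 0.10 (0.44), Elane 0.09 (0.43), Prtn3 0.07 (0.48) and Ctsg -0.18 (0.41). Thus 7 of 9 members were above 0, against 48.2% of all tested genes. The values of Mpo, Elane and Prtn3 rest on YJT3: without it they were -0.35, -0.57 and -0.22, and with no scaling factors they were also below 0. In this comparison 0 of 9 were past the adjusted threshold in edgeR (adjusted p 0.878 to 0.993), against 0% of all genes. At an unadjusted p under 0.05 there were 0 of 9 against 6.58%, and groups without overlap numbered 0 of 9 against 11.7%. Primary minus later was -0.32, with 0.06 without Model1 and -0.78 without Model2, and it was -0.55 with limma on log2(FPKM + 1).

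In YJZYT against Model 8 of 9 members had fold changes above 0, where 42.3% of all tested genes were above 0 and the median over all genes was -0.07. Elane had 0.54 (SE 0.43), Prtn3 0.45 (0.48), Ctsg 0.39 (0.42) and Mpo 0.36 (0.44). Camp had 0.55 (0.76), Ngp 0.51 (0.71), S100a9 0.16 (0.76), S100a8 0.11 (0.81) and Lcn2 -0.13 (0.67). The 4 primary members and Camp and Ngp stayed above 0 in each alternative run, while S100a8 and S100a9 were at -0.28 and -0.24 without YJZYT3. Still, 0 of 9 were past the adjusted threshold in edgeR (adjusted p 0.804 to 0.986), against 0% of all genes. At an unadjusted p under 0.05 there were 0 of 9 against 7.29%, and groups without overlap numbered 0 of 9 against 12.9%. Primary minus later was 0.26, with -0.32 without Model2 and 0.57 without Model1. The comparisons of SYT, YJT and YJZYT share the Model libraries, so their values are not independent of each other. In the test of any difference among the 5 groups, 0 of 9 members passed (adjusted p 0.762 to 0.969), against 0.0227% of all genes, and 0 of 9 had an unadjusted p under 0.05, against 7.71%.

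**Figure D4:**
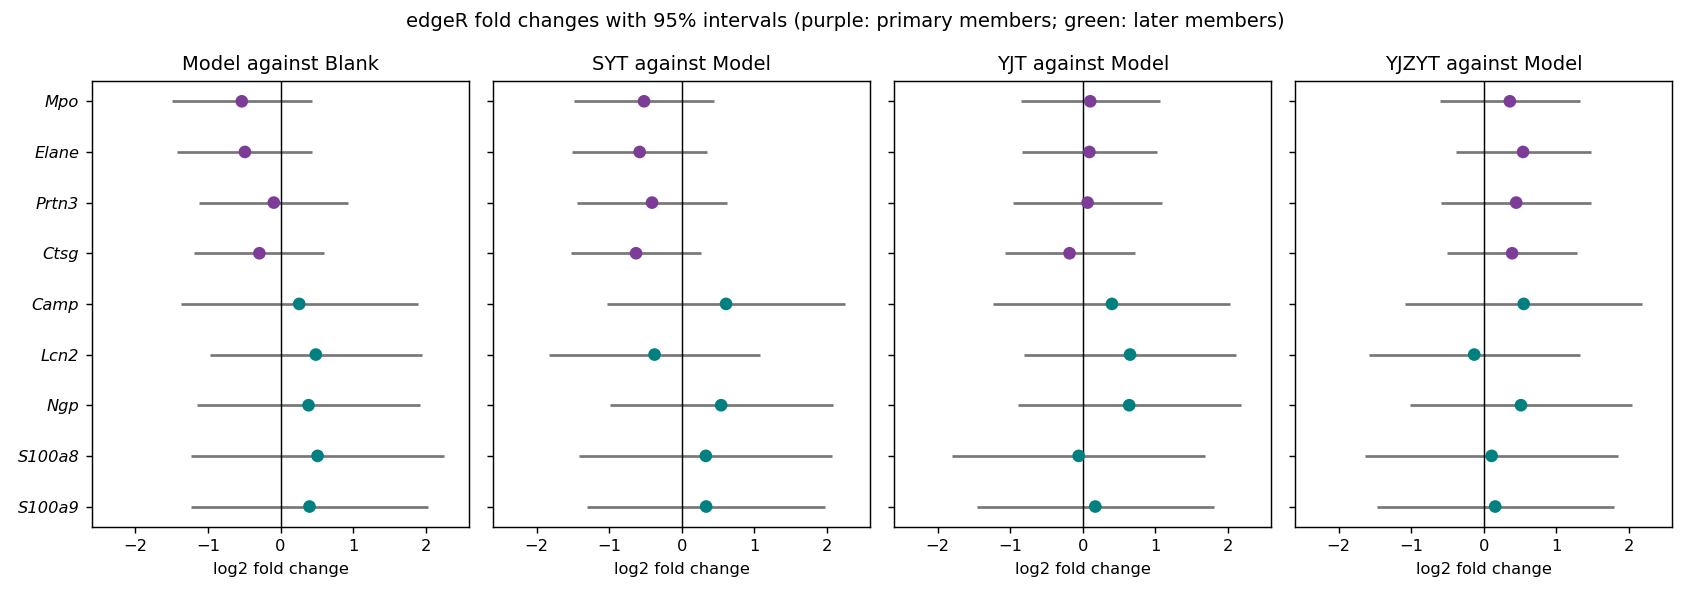
Log2 fold change of the 9 tested members in the 4 comparisons, as points with 95% intervals from edgeR; purple points are primary and green points later members, and the vertical line marks 0. Every interval includes 0, and the intervals of the later members are the wider ones (SE 0.67 to 0.81, against 0.41 to 0.48 for the primary members).

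The other genes of the neutrophil programme were counted from 4 lists, and in no list did a gene pass the adjusted threshold in any comparison. Of 14 other primary granule and promyelocyte genes, 7 were above and 7 below 0 in Model against Blank (median -0.05), 6 and 8 for SYT (median -0.13), 9 and 5 for YJT (0.11) and 9 and 5 in YJZYT against Model (0.20). Of 17 genes listed as other secondary granule genes, 15 were above 0 in Model against Blank (median 0.30), 11 for SYT (0.02), 15 for YJT (0.41) and 11 in YJZYT against Model (0.04). This list holds the α-defensins Np4 and RatNP-3b, which are known from primary granules. Without them, a choice made after seeing the data, 14, 10, 13 and 9 of 15 genes were above 0 in the same order of comparisons (median 0.31, 0.02, 0.41 and 0.01). With no scaling factors the medians of all 17 in SYT and YJZYT were -0.29 and -0.13, and the median of all genes was then -0.22 and -0.22 as well. The SYT values of the 4 lists were not taken without SYT1 and SYT3. The summed secondary granule genes were at 21678, 10386 and 2438 CPM in SYT1, SYT2 and SYT3, so these SYT values depend on single libraries. Of 23 genes of tertiary granules and mature neutrophils, 22 were above 0 in Model against Blank (median 0.32), 13 for SYT (0.07; -0.24 with no scaling factors), 19 for YJT (0.32) and 4 in YJZYT against Model (-0.13). With no scaling factors the last median was -0.28, where that of all genes was -0.22. The primary members were all above 0 in YJZYT against Model, and no difference between the lists was tested. Of all tested genes, 51.7% were above 0 in Model against Blank. For SYT, YJT and YJZYT against Model the shares were 53.2%, 48.2% and 42.3%. At an unadjusted p under 0.05 there were 1 of 14 primary granule genes in YJZYT against Model (7.29% of all genes) and 1 of 23 mature neutrophil genes in Model against Blank (8.19% of all), and 0 in the other comparisons of these 3 lists.

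No gene named from these lists passed the adjusted threshold, and each is named for having the smallest p, or the next smallest, in its list. Among the primary granule genes, Serpinb1a, an inhibitor of neutrophil serine proteases, was at 206 ± 66.0 CPM for Model and 336 ± 72.3 in Blank (SD, n = 3; log2 fold change -0.71, adjusted p = 0.817). Prss57, a granule serine protease, had -0.75 in SYT against Model (adjusted p = 1.0). Ctsc, the dipeptidyl peptidase that activates the granule proteases, was at 49.2 ± 6.43 CPM for YJT and 46.2 ± 10.4 in YJZYT against 64.2 ± 5.18 for Model (SD, n = 3). All 3 libraries of YJT and of YJZYT lay below all 3 of Model (log2 fold change -0.38 and -0.47, adjusted p = 0.768 and 0.638). The Ctsc values therefore lay on the other side of 0 from Elane, Prtn3 and Mpo in both comparisons, though no test was made of that difference. In YJT against Model, Ctsg was below 0 as well (-0.18). Without YJT3, so were Mpo, Elane and Prtn3 (-0.35, -0.57 and -0.22).

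In the list of secondary granule genes, Ceacam1, an adhesion molecule, was at 101 ± 25.6 CPM for Model and 45.9 ± 13.3 in Blank, without overlap (log2 fold change 1.13, SE 0.70, adjusted p = 0.749). Ltb4r, a leukotriene receptor that the list also holds, had 0.78 in YJT against Model (adjusted p = 0.835). B4galt1, a galactosyltransferase, had -0.17 for SYT and -0.24 for YJZYT (adjusted p = 1.0 and 0.764). In the mature neutrophil list, Stfa2l1, of the stefin family of protease inhibitors, was at 0 counts in all 3 Blank libraries and at 9.27, 3.44 and 0.932 CPM for Model. Against a floor of 3 counts in each Blank library its Model mean was at least 102-fold higher (adjusted p = 0.35), or at least 48.9-fold without Model1. Stefins have near-identical copies between which reads may be split, so the value is uncertain. Stfa2l1 was at 0.162 to 4.44 CPM for SYT (log2 fold change -1.48 against Model, adjusted p = 1.0). For YJT it was at 0.0666 to 4.33 CPM and for YJZYT at 0.0594 to 3.38 CPM. Its level thus varied widely between libraries within every group apart from Blank. Mmp9, the gelatinase of tertiary granules, which osteoclasts also express, was at 675 ± 304 CPM for YJT and 1134 ± 25.5 for Model, without overlap (log2 fold change -0.75, adjusted p = 0.775). Fpr2, a formyl peptide receptor, was at 36.9 ± 47.5 CPM for YJZYT and 11.97 ± 3.92 for Model (log2 fold change 1.62, adjusted p = 0.735), with an SD above its mean in YJZYT.

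The regulators of granulocyte production made a list of 18 tested genes. Of these, 13 were above 0 in Model against Blank (median 0.22), 8 for SYT (0.00), 13 for YJT (0.14) and 6 in YJZYT against Model (-0.20). With no scaling factors the medians in SYT and YJZYT were -0.29 and -0.35, and that of all genes was -0.22 in both. The shares of all tested genes above 0 were 51.7%, 53.2%, 48.2% and 42.3% in the same order of comparisons. At an unadjusted p under 0.05 there were 1, 2, 1 and 2 of 18 in these comparisons, where 8.19%, 3.16%, 6.58% and 7.29% of all genes were past it. Gfi1, a repressor needed for neutrophil maturation, was at 31.9 ± 8.77 CPM for Model, above all Blank libraries (20.1 ± 2.51; SD, n = 3), with a log2 fold change of 0.66 (SE 0.28, adjusted p = 0.557). In SYT it was at 19.9 ± 9.74 CPM (-0.68, adjusted p = 1.0). Myb, a factor of early progenitors, was at 50.7 ± 8.11 CPM for SYT and 87.5 ± 8.24 for Model, without overlap (log2 fold change -0.79, SE 0.22, unadjusted p = 0.00324, adjusted p = 1.0). Myb also lay below all Model libraries in YJT (64.4 ± 8.12 CPM, -0.44, edgeR adjusted p = 0.772), while YJZYT overlapped with Model (-0.34). Cbfb, the partner of RUNX1, was at 93.1 ± 15.6 CPM for YJT and 155 ± 63.2 for Model, without overlap (-0.74, adjusted p = 0.746). Cebpb, a C/EBP factor of emergency granulopoiesis, was at 17.2 ± 3.10 CPM for YJZYT and 31.9 ± 3.56 for Model, without overlap (-0.89, SE 0.27, adjusted p = 0.638). It was also lower in Model than in all Blank libraries (46.3 ± 10.5 CPM; log2 fold change -0.54, adjusted p = 0.658). Runx1 was at 13.6 ± 2.05 CPM for YJZYT and 18.9 ± 1.71 for Model, without overlap (-0.47, adjusted p = 0.645). Runx1 also lay below all Model libraries in SYT (14.3 ± 1.92 CPM, -0.40), while YJT overlapped with Model (-0.21). These comparisons share the Model libraries.

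Of 11420 other genes with a symbol and a mean of at least 1 FPKM, those most like each set over the 15 libraries were taken by Pearson's r with the mean standardised log2 CPM of its members. The closest to the primary members were Nkg7 (r 0.98), Ms4a3 (0.97), Defa5 and Np4 (0.96 each) and Cpne1 (0.94). Defa5 and Np4 are α-defensins, antimicrobial peptides whose near-identical copies may share reads, and they were at 1540.1 and 1311 FPKM on average, above every primary member in level per length. The closest to the later members were Mcemp1 (r 0.98), Ifitm6, Cd200r1, Ankrd22 and Tnfsf14 (0.97 each). Their mean levels were 8.88 (Cd200r1) to 247 FPKM (Ifitm6). These r are descriptions over libraries that share their cell mixture. Without SYT1 and SYT3 they were 0.93 to 0.96 for the first 5 genes and 0.92 to 0.96 for the others.

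Summed markers of some other cells were correlated with the granule genes across libraries, with r of either sign. The summed osteoblast markers had r -0.71 with the primary score and -0.60 with the later score (-0.62 and -0.59 without SYT1 and SYT3). The range of that sum was 16403 to 51832 CPM for Blank, 27325 to 64889 for Model, 24736 to 110890 for SYT, 3907 to 38441 for YJT and 5112 to 43462 for YJZYT. SYT3, the lowest library for all 9 tested members, had the highest sum, and YJT3 and YJZYT3, highest for Elane, Lcn2, Prtn3 and Ctsg, had the lowest sums. Col1a1, the main collagen of bone, was at 75016 CPM in SYT3, 2109 in YJT3 and 2431 in YJZYT3. The part of bone matrix cells in the differences between libraries was not tested.

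**Figure D5:**
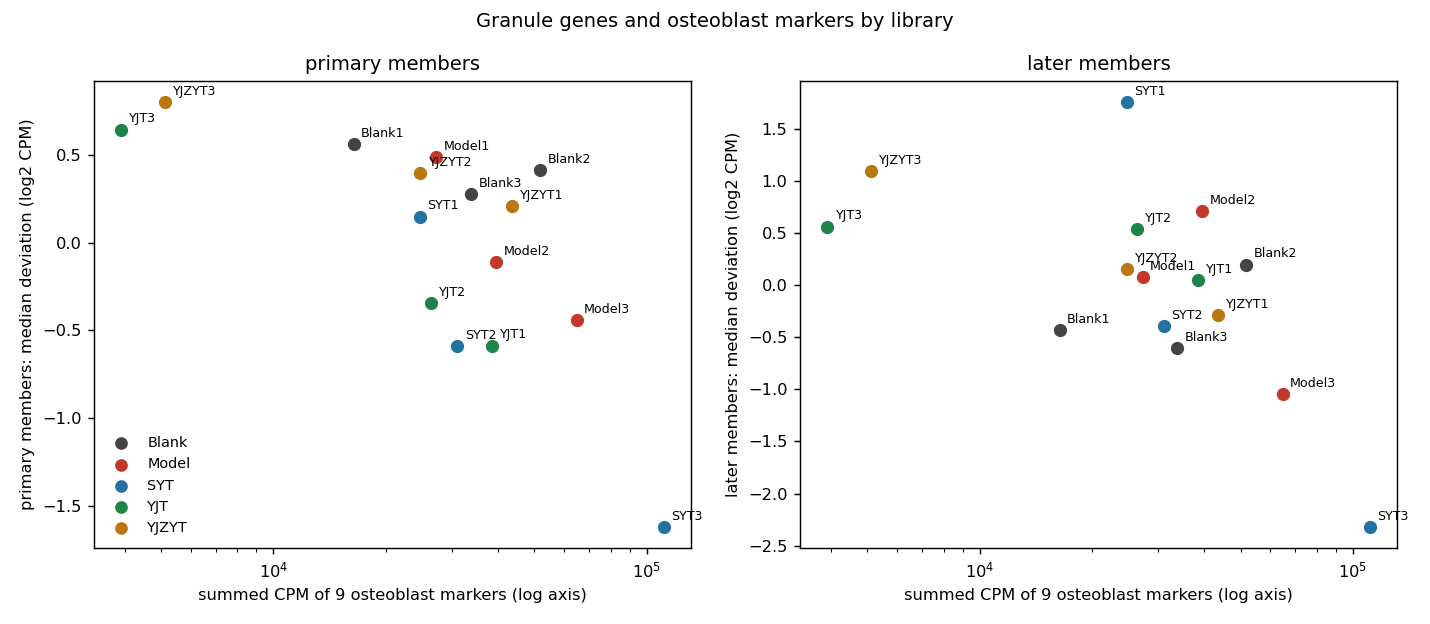
Score of the primary members (left) and of the later members (right), as median deviations in log2 CPM, against the summed CPM of 9 osteoblast markers on a log axis; each point is a library, coloured by group. SYT3 is at the lower right of both panels (110890 CPM), and YJT3 and YJZYT3 are at the upper left (3907 and 5112 CPM).

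Eosinophil, basophil and mast cell markers, which label the other granulocytes, had r 0.84 with the primary score and 0.74 with the later score (0.78 and 0.45 without SYT1 and SYT3). All 10 of the markers found (of 12) were above 0 in every library, and their sum ran from 172 to 330.1 CPM for Blank, 114 to 251 for Model, 71.2 to 375 for SYT, 142 to 269.9 for YJT and 207 to 366 for YJZYT. Monocyte and macrophage markers had r 0.82 with primary minus later, -0.06 with the primary score and -0.67 with the later score (0.79, 0.17 and -0.68 without SYT1 and SYT3). The 11 found (of 12) were above 0 in every library, and their sum ran from 801 to 887 CPM for Blank, 578 to 839 for Model, 437 to 789 for SYT, 359 to 589 for YJT and 449 to 736 for YJZYT. The Blank libraries lay above all SYT, YJT and YJZYT libraries in that sum. The part of monocytes in that balance was not tested.

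The remaining marker lists gave the following r with the primary and the later score, with the values without SYT1 and SYT3 in parentheses. Megakaryocyte markers had 0.73 and 0.10 (0.80 and 0.08), and erythroid markers 0.58 and 0.48 (0.40 and 0.29). Genes of cell division had 0.62 and 0.37 (0.41 and 0.31). Osteoclast markers, a list that holds Mmp9, had -0.61 and -0.56 (-0.53 and -0.53), and endothelial markers -0.11 and -0.65 (0.22 and -0.45). Adipocyte markers had -0.13 and -0.39 (-0.09 and -0.58), and B cell markers -0.33 and 0.01 (-0.35 and -0.01). T and NK cell markers, a list that holds Nkg7, had 0.36 and 0.01 (0.40 and -0.15), and skeletal muscle markers -0.28 and -0.37 (-0.20 and -0.32).

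Some marker sums separated groups in which no member was separated. Model lay below Blank without overlap in skeletal muscle markers (229 to 755 CPM against 4169 to 6311), adipocyte markers (187 to 289.7 against 481 to 639) and endothelial markers (168 to 304 against 306 to 375). Model lay above Blank in T and NK cell markers (173 to 185 CPM against 151 to 172). The summed genes of tertiary granules and mature neutrophils also lay above Blank in Model (2248 to 3176 CPM against 1964 to 2182). That sum holds Mmp9, which was at 1134 ± 25.5 CPM for Model and 762 ± 254 for Blank, without overlap. The sum without Mmp9 was not taken. Against Model, SYT lay higher in adipocyte markers (309 to 352 CPM) and lower in T and NK cell markers (133 to 162 CPM). YJT lay higher than Model in skeletal muscle markers (3002 to 3337 CPM) and lower in T and NK cell markers (117 to 163 CPM). Of the 9 tested genes in the T and NK cell list, 4 were above and 5 below 0 for SYT (median log2 fold change -0.04). Nkg7, which is in that list and was the gene closest to the primary members, had -0.59 for SYT. For YJT, 2 were above and 7 below 0 (median -0.44), and Nkg7 had 0.08. The sum without Nkg7 was not taken. In YJZYT, where the 4 primary members had fold changes above 0, genes of cell division lay above all Model libraries (2618 to 3572 CPM against 1949 to 2453). The part of these cells in the comparisons was not tested.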

How the data were processed

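Bone RNA of 15 libraries was sequenced after poly(A) selection, with strand marking by dUTP and adapters holding molecular identifiers, per the labels' protocols. Tools listed in the submitters' processing notes are StringTie 1.3.4d, HISAT2 2.0.4, cutadapt 1.9 and UMI-tools, along with edgeR and DESeq2. Their roles, the genome build, the annotation and the counting's strand setting: not given in the sources used here. In the deposited table each gene has, per the file headers, an integer count and an FPKM in each library. The authors' FPKM served for levels compared between genes.

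Counts were used as deposited. Groups came from the sample titles. The counts were fitted with edgeR 4.0.16 in R 4.3.3: filterByExpr (17657 genes tested, 4811 left out), TMM scaling, a robust quasi-likelihood fit to the 15 libraries together (1 mean for each group), 10 residual degrees of freedom, a biological coefficient of variation of 42.7%, two-sided tests, Benjamini-Hochberg adjustment over all tested genes and a threshold of 0.05. log2 CPM used a prior count of 2. The alternatives were RLE size factors, no scaling factors, other low-value filters, DESeq2 1.42.0, limma 3.58.1 on log2(FPKM + 1) and log2(FPKM + 0.1), only the 6 libraries compared, a replicate block, each library left out and YJT3 with YJZYT3 left out. Leaving out SYT1 with SYT3, the difference of mean log2 CPM and the secondary granule list without defensins were added after seeing the data. The fitting was tested on simulated counts.

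The members, 4 neutrophil lists and 12 marker lists were chosen with earlier results of these data known. Named are all members; from each neutrophil list without a gene past the threshold, up to 2 genes with the smallest p in each comparison; the 5 genes most like each set; and Col1a1. Promoters are RefSeq sequences of GRCr8.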

Additional observations from a re-analysis of the deposited data

How the results depend on the processing

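Over 36 member folds (9 genes, 4 comparisons) and 26 alternative settings, no fold passed the adjusted threshold (lowest adjusted p 0.451), and 18 of the 36 kept their sign in every setting. With a biological coefficient of variation of 42.7% and 3 libraries a group, intervals are wide, so a missed threshold does not show that levels were alike. The cause of the changes below was not tested. With no scaling factors the median of all genes was 0.02 in Model against Blank and -0.22, -0.16 and -0.22 in SYT, YJT and YJZYT against Model.

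The number of genes past the threshold in Model against Blank was 4 in edgeR, 289 in DESeq2, 40 and 2 with limma on log2(FPKM + 1) and log2(FPKM + 0.1), 8 with only the 6 libraries compared, and 0 with no scaling factors and without YJT3 and YJZYT3. For any difference among the 5 groups it was 4, then 608 in DESeq2, 101 and 11 with limma, and 0 with no scaling factors and without YJT3 and YJZYT3. The 0 genes of SYT, YJT and YJZYT against Model became 27, 96 and 64 in DESeq2, and the YJT number was 2 without SYT1 and SYT3. Leaving out 1 library gave 0 to 7 genes in Model against Blank, 0 to 1 in each of SYT, YJT and YJZYT, and 0 to 5 for any difference.

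In SYT against Model, limma with a pseudocount of 1 gave -0.31, -0.51, -0.55 and -0.56 for Camp, Ngp, S100a8 and S100a9, and with 0.1 the same to 2 decimals. Without SYT1 and SYT3 they were -0.46, -0.18, -0.84 and -0.60. Primary minus later was then -0.13. In YJT against Model, Mpo, Elane and Prtn3 were at -0.0075, -0.00069 and -0.049 with no scaling factors. With limma they were at -0.072, -0.17 and -0.049 with a pseudocount of 1 and at -0.073, -0.17 and -0.050 with 0.1, and without YJT3 and YJZYT3 at -0.35, -0.57 and -0.22. S100a8 in YJT was at 0.048 in both limma fits. In YJZYT, S100a8 was at -0.034 with no scaling factors and at -0.28 without YJT3 and YJZYT3, where S100a9 was at -0.24.

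With 1 library left out, the folds in Model against Blank ran from -0.42 to 0.34 for Prtn3, -0.31 to 0.64 for Camp, -0.27 to 0.88 for S100a8 and -0.17 to 0.72 for S100a9. In SYT against Model they ran from -1.09 to 1.18 for Camp, -1.04 to 0.10 for Lcn2, -0.93 to 1.07 for Ngp, -1.46 to 1.11 for S100a8 and -1.28 to 0.91 for S100a9, and primary minus later from -1.57 to 0.030. In YJT they ran from -0.35 to 0.55 for Mpo, -0.57 to 0.52 for Elane, -0.22 to 0.40 for Prtn3, -0.69 to 0.14 for Ctsg, -0.38 to 0.72 for S100a8 and -0.13 to 0.74 for S100a9. In YJZYT they ran from -1.05 to 0.22 for Lcn2, -0.28 to 0.88 for S100a8 and -0.24 to 0.72 for S100a9. Primary minus later ran from -1.03 to -0.15 in Model against Blank, from -0.78 to 0.06 in YJT and from -0.32 to 0.57 in YJZYT.

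Nothing in the labels says that a replicate number is shared between groups. The deviations of same-numbered libraries had a median correlation of -0.02 over 30 pairs (-0.42 to 0.40). It was 0.01 over 60 pairs with different numbers (-0.44 to 0.40). The pairs share libraries and spread widely, so these medians do not tell whether some same-numbered libraries shared a batch. With the replicate number as a block, 0 genes passed in Model against Blank and for any difference, and S100a8 in YJT against Model was at 0.12.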
